A study of Homo sapiens with 3 samples.

Results

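The genes of the proteasome were examined in THP-1 macrophages on whole-genome arrays. Members were all array genes named PSMA to PSMG with a number, without pseudogenes and without the 5 antisense names, which gave 49 of 43317 gene names and 72 of 58201 probes. The comparison within the family set the 5 interferon-inducible genes PSMB8, PSMB9, PSMB10, PSME1 and PSME2 against the other 44. Of the members, 16 had more than 1 probe, and the brightest stood for the gene. PSMC3IP was found by its name but encodes a partner of the recombination machinery and is not a proteasome subunit.

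THP-1 is a human monocytic leukemia line, and in all 3 conditions the cells had been differentiated into macrophages with PMA (100 ng/ml for 24 to 36 h) and rested overnight in fresh medium. The Ctrl array held cells without further treatment. The IMQ array held cells exposed to imiquimod, an agonist of Toll-like receptor 7 that is used to provoke psoriasis-like inflammation, and the IMQ+DMD array held cells pretreated with DMD, a compound from the fungus Antrodia cinnamomea, before imiquimod. The third array is labelled IMQ+X, and X was read as DMD because the treatment protocol names no other compound. The labels give 4 h for each condition, no dose, and a single replicate, so every difference below is between 2 arrays of 1 cell line and has no replicate check.

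The proteasome degrades proteins tagged with ubiquitin. Its 20S core is a stack of rings of alpha and beta subunits, with the protease sites on 3 of the beta subunits, and the 19S cap unfolds substrates and feeds them in. Interferon and inflammatory signals are known to replace the catalytic beta subunits with inducible ones, which changes the peptides offered to MHC class I, and the 11S activator PA28 is induced with them. In macrophages this immunoproteasome is present before stimulation.

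The probes of both catalytic pairs that diverged most are shown so that the measured stretch of each transcript is visible. Each has 60 bases, and coordinates are those of the scanner files (hg19). PSMB9 was read at chr6:32823918-32823977 on the plus strand and PSMB6 at chr17:4701404-4701589 on the plus strand, across an intron. PSMB8 was read at chr6:32810023-32810490 on the minus strand, also across an intron, and PSMB5 at chr14:23495485-23495544 on the minus strand. No base is in capitals, because no motif was searched in the probes.
PSMB9: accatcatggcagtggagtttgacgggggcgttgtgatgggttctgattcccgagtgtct
PSMB6: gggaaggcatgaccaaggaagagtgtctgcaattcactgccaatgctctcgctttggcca
PSMB8: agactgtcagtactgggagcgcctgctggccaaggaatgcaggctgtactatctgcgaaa
PSMB5: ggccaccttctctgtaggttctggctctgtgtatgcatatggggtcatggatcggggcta

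The marker genes matched the labelled cell type. All 7 monocyte and macrophage markers with a probe were well above background, between 13.1 and 17.8 in log2 units, while the keratinocyte and epithelial markers reached 5.93 at most and EPCAM was not well above background on any array. The summed level of the monocyte markers was 19.27 on Ctrl, 19.05 on IMQ and 18.99 on IMQ+DMD, a sum carried by the brightest of them. CD33 and CD14 were lower after IMQ, by differences of -0.84 and -0.73, and CD14 was lower still on IMQ+DMD, with a difference of -1.23 from Ctrl. CSF1R (-0.36), FCER1G (-0.31) and ITGAM (-0.20) were also lower after IMQ, while TYROBP (-0.01) and SPI1 (0.02) were level. The part of these shifts in the results was not tested. Lower intensity of a marker cannot be told apart from fewer cells carrying it. B cell markers were also measured, with CD79A at 12.04 on Ctrl, 11.74 on IMQ and 11.97 on IMQ+DMD. The share of all probes well above background was 72.0% on Ctrl, 66.6% on IMQ and 71.9% on IMQ+DMD.

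Nearly all proteasome genes were strongly measured. Only PSMA8, the alpha subunit of germ cells, was not well above background on any array, and PSMB11, the catalytic subunit of thymic epithelium, was so on Ctrl and IMQ+DMD but not on IMQ. The other 47 genes were well above background on all 3 arrays. In the plot of levels the 3 arrays of most genes lie close together. The widest gap is that of the dim PSMB11, and PSMC3IP, PSMG4, PSMD10, PSMD11, PSMB9, PSME4 and PSMA6 have clear gaps too.

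**Figure D1:**
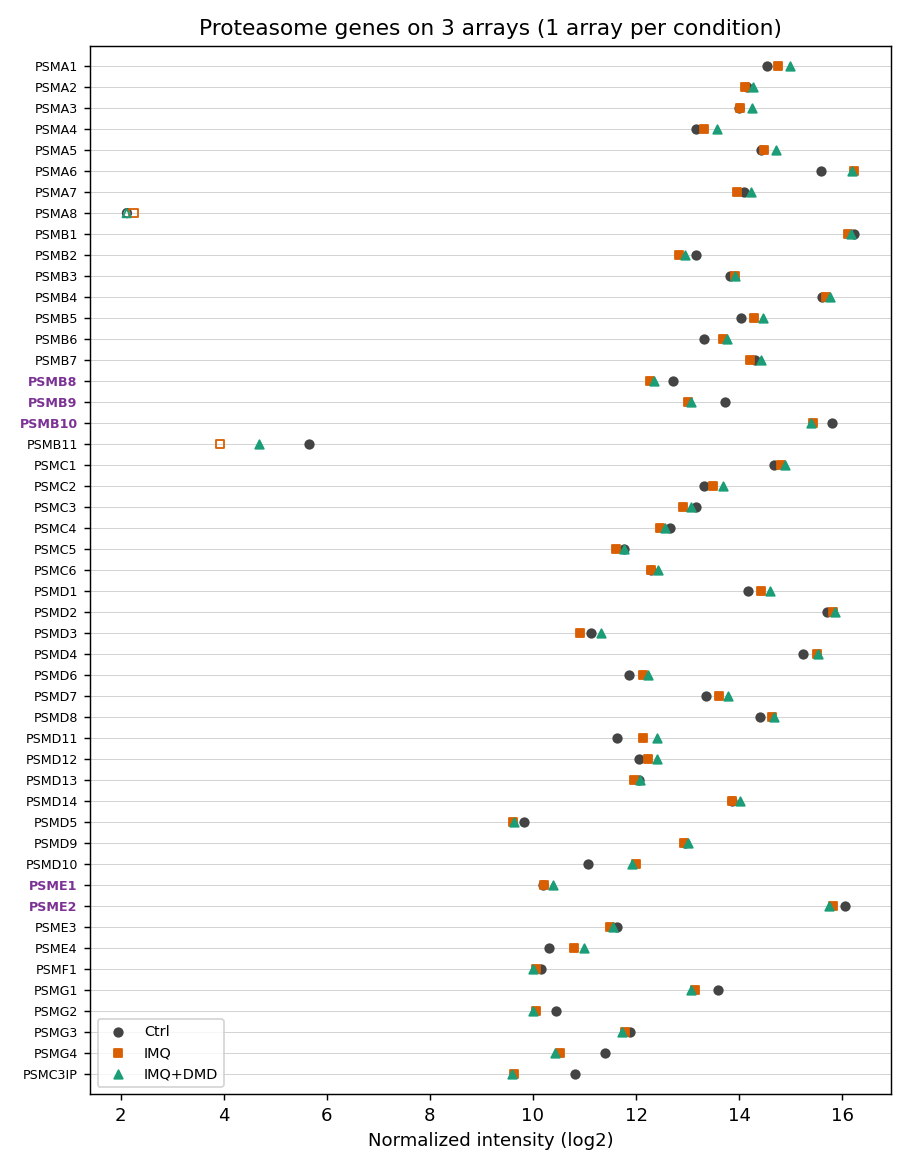
Normalized intensity (log2, horizontal axis) of the 49 genes on the Ctrl, IMQ and IMQ+DMD arrays, 1 array each, with the inducible genes in purple. Open symbols are values not well above background, which were PSMA8 on all arrays and PSMB11 on IMQ.

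IMQ against Ctrl asked what the activator does to the transcripts of the machinery. All 3 inducible catalytic subunits were lower after IMQ, while 2 of their 3 constitutive counterparts, PSMB5 and PSMB6, were higher as quantile normalized. Without normalization and with spike-in scaling the median of all genes itself moved to -0.51 and -0.59, and differences under those settings are read relative to it. No proteasome gene was at least 2-fold higher, against 4.22% of all genes compared, and 2 of 48 were at least 2-fold lower, against 3.61%. Those 2 were PSMC3IP and PSMB11, neither of them a subunit of the ordinary particle. A share of 4.17% lower is near that background.

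PSMB9 encodes the inducible beta1 subunit. Its log2 level was 13.73 on Ctrl, 13.00 on IMQ and 13.06 on IMQ+DMD. The difference of -0.73 ± 0.06 (technical SD) between IMQ and Ctrl was the widest among the 5 inducible genes. PSMB8, the inducible beta5 subunit, stood at 12.72 on Ctrl, 12.27 on IMQ and 12.35 on IMQ+DMD, a difference of -0.45 ± 0.06. Both treated arrays lay below Ctrl and close to each other for both genes. PSMB10, the inducible beta2 subunit, was at 15.81, 15.43 and 15.39 on the same arrays, and IMQ was lower than Ctrl by 0.37 on the log2 scale, with a difference of -0.37 ± 0.06. Each of the 3 differences was larger than the noise between repeated spots.

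The subunits of the PA28 activator did not move as a pair. PSME2, its beta subunit, was at 16.06, 15.83 and 15.75 on Ctrl, IMQ and IMQ+DMD, with a difference of -0.23 ± 0.06 for IMQ against Ctrl. With the 75th percentile this difference was -0.02, which was 0.05 above the median of all genes. PSME1, its alpha subunit, was at 10.19, 10.21 and 10.40, and the IMQ difference of 0.02 ± 0.07 was within the noise. PSME3, which forms a nuclear activator of the same family and is not inducible, was at 11.63, 11.49 and 11.55. PSME4, the large PA200 activator, was higher on each treated array, at 10.31, 10.80 and 10.99.

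Of the constitutive catalytic subunits, PSMB5 and PSMB6 were higher after IMQ, although with spike-in scaling their differences were -0.10 and -0.07. These were 0.49 and 0.52 above the median of all genes. With that scaling the ubiquitin and assembly lists described below were above it too, by 0.34 and 0.32. PSMB6, the constitutive beta1 subunit, was at 13.33, 13.68 and 13.77, a difference of 0.36 ± 0.06 for IMQ against Ctrl. PSMB5, the constitutive beta5 subunit and the main target of proteasome inhibitors, was at 14.03, 14.29 and 14.46, a difference of 0.26 ± 0.06. As quantile normalized both were highest on IMQ+DMD, but from IMQ to IMQ+DMD the difference of PSMB6 was -0.07 with the 75th percentile and -0.05 without normalization, and that of PSMB5 was 0.01 and 0.04. PSMB7, the constitutive beta2 subunit, was at 14.32, 14.21 and 14.42, with an IMQ difference of -0.11 ± 0.06.

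A difference of differences cancels any constant factor per array, though not the quantile normalization, so the pairs were set against each other site by site. Between Ctrl and IMQ the difference of the inducible gene minus that of its constitutive counterpart was -1.08 ± 0.08 log2 units at the beta1 site, -0.71 ± 0.09 at beta5 and -0.27 ± 0.09 at beta2. Over all 10 other ways of processing, these gaps were between -1.09 and -1.03 for beta1, between -0.77 and -0.71 for beta5 and between -0.29 and -0.27 for beta2. The direction was the same at all 3 sites in every one, but several of these settings could not differ. Those on the floor, the detection filter and the choice of probe returned the main value, as each gene has a single bright probe. The 75th percentile, no normalization and spike-in controls differ by a constant per array. They gave the same gaps, -1.06 at beta1, -0.77 at beta5 and -0.29 at beta2. From IMQ to IMQ+DMD the inducible minus constitutive difference was -0.25 ± 0.08 at beta2, -0.02 ± 0.09 at beta1 and -0.10 ± 0.09 at beta5. It was thus beyond 2 technical SD at beta2 alone. Over the other ways of processing it was between -0.26 and -0.20 at beta2 and between -0.03 and -0.02 at beta1, and at beta5 it was between -0.10 and 0.02, turning positive with normexp.

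**Figure D2:**
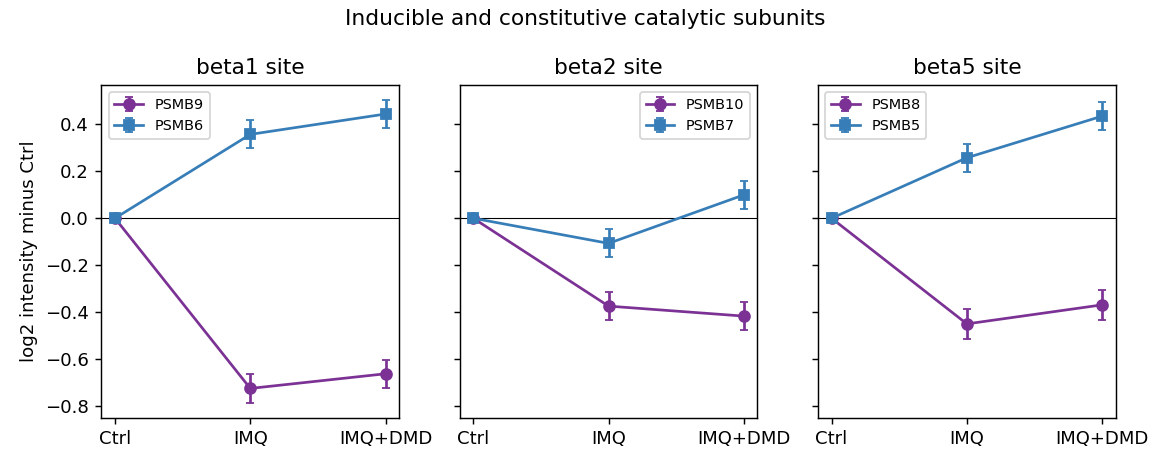
Log2 intensity relative to Ctrl (vertical axis) of each inducible catalytic subunit and its constitutive counterpart on the 3 arrays; bars are the technical SD of the difference from Ctrl. The inducible gene lies below its counterpart on both treated arrays at each site, with a gap of -1.08 at beta1 and -0.71 at beta5 on IMQ.

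The median difference between IMQ and Ctrl was -0.37 over the 5 inducible genes and 0.00 over the 43 others that could be compared, beside -0.02 over all 31869 genes compared. Of the 5 inducible genes 4, or 80.0%, were lower by more than 2 technical SD, and among all genes 23.2% were. Under scaling by the 75th percentile the inducible median was -0.22, and without scaling it was -0.67, where the median of all genes was itself at -0.51. The inducible median stayed below the median of all genes in every setting, by 0.15 to 0.39.

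The genes of the ordinary 26S particle, that is the alpha ring, the beta ring without inducible and thymic subunits, and the 19S base and lid, had a median of 0.10 over 31 genes. Of these, 20 were higher and 11 lower after IMQ, where 47.9% of all genes compared were higher and 52.1% lower. The direction of this median depends on the scaling: it was -0.19 without normalization and -0.26 with spike-in controls, settings in which the median of all genes fell to -0.51 and -0.59. Relative to all genes it was higher in each setting, by 0.09 to 0.33. With the 75th percentile the ubiquitin, assembly and MHC class I lists described below were above the median of all genes too, by 0.34, 0.33 and 0.24. The larger excess in that setting was therefore not particular to the particle. As quantile normalized the particle was 0.12 above the median of all genes, beside 0.15 for the assembly list, 0.06 for MHC class I and 0.05 for ubiquitin. As quantile normalized, the 8135 genes with a mean log2 value of at least 10 had a median of -0.01. Bright genes were compared as a list in that setting only.

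Within the particle, a few subunits stood out. PSMA6, an alpha ring subunit, was the largest rise among the subunits of the core, at 15.59, 16.23 and 16.19, with a difference of 0.64 ± 0.06. The remaining alpha subunits differed by -0.13 to 0.21, each by its brightest probe. A dimmer probe of PSMA1, also well above background, was at 8.15, 8.94 and 9.04, a difference of 0.80 that is larger than that of PSMA6. PSMD11, which helps to join the 19S lid to the base, was at 11.62 on Ctrl, 12.14 on IMQ and 12.41 on IMQ+DMD, a difference of 0.51 ± 0.06. The 11 non-ATPase subunits of the 19S particle had a median of 0.23 and 8 of them were higher, where 47.9% of all genes compared were. With spike-in scaling 1 of them was higher and the median was -0.19. The 6 ATPases, which drive unfolding, had a median of -0.08 and were split evenly in direction. Among the beta subunits without protease sites, PSMB2 was lower by 0.33 on the log2 scale, with a difference of -0.33 ± 0.06.

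PSMD6 and PSMD7, lid subunits that each had 10 spots, give the tightest measurement in the family. PSMD7 was at 13.37 ± 0.05 on Ctrl, 13.61 ± 0.05 on IMQ and 13.79 ± 0.05 on IMQ+DMD (SD, n = 10 spots). PSMD6 was at 11.87 ± 0.05, 12.13 ± 0.05 and 12.23 ± 0.06. The IMQ spots of both genes lay above the Ctrl spots without overlap, as the lowest IMQ spot of PSMD7 (13.49) was above its highest Ctrl spot (13.48), and the lowest of PSMD6 (12.07) above its highest (11.93). These spots share an array and are not biological replicates, and with spike-in scaling the differences of PSMD7 and PSMD6 were -0.19 and -0.16.

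Factors that assemble the particle differed from the particle itself. All 4 chaperones of the 20S core, PSMG1 to PSMG4, were lower after IMQ, with a median of -0.42, where 52.1% of all genes compared were lower. With the 75th percentile, however, PSMG3 had a difference of 0.00. PSMG4 was at 11.39 on Ctrl, 10.52 on IMQ and 10.42 on IMQ+DMD, a difference of -0.87 ± 0.07. PSMG1 was at 13.60, 13.14 and 13.07, a difference of -0.45 ± 0.06, and its partner PSMG2 at 10.44, 10.05 and 10.01, a difference of -0.39 ± 0.07. Both treated arrays again sat together below Ctrl. The other probe of PSMG2, also well above background, was at 6.17, 6.14 and 6.48, a difference of -0.03 after IMQ and with IMQ+DMD above Ctrl by 0.31. PSMG3 was at 11.87, 11.79 and 11.73, a smaller gap of -0.08 ± 0.06. The chaperone median was below the particle median in every setting, by 0.31 to 0.61. The smallest gap came from averaging all probes of a gene, where PSMG4 includes probes not well above background and its difference was -0.21, as was that of PSMG2.

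Of the 19S assembly chaperones, PSMD10, also known as gankyrin, had the largest rise in the family. It was at 11.07 on Ctrl, 12.00 on IMQ and 11.93 on IMQ+DMD, a difference of 0.92 ± 0.07, or 1.90-fold. Its other probes differed by 0.40 and 0.44, so the size depended on the probe while the direction did not. PSMD5 was lower, at 9.83, 9.61 and 9.64, and PSMD9 was level at 12.95, 12.94 and 13.00. PSMF1, an inhibitor of the core, was at 10.16, 10.07 and 10.01.

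The genes past 2-fold have other roles. PSMC3IP was at 10.81 on Ctrl, 9.64 on IMQ and 9.59 on IMQ+DMD, 2.26-fold lower after IMQ. PSMB11 was at 5.65 on Ctrl and 4.69 on IMQ+DMD and was not well above background on IMQ, where it was at least 2.12-fold lower than on Ctrl. The technical SD of that difference was 0.47, and its other probe gave a bound of -0.34 in log2 units. At 1.5-fold, PSMA6 and PSMD10 were higher and PSMB9 and PSMG4 joined the lower genes. These were 2 of 48 higher and 4 of 48 lower, and 10.7% of all genes compared passed 1.5-fold in each direction, so neither count is above that background.

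**Figure D3:**
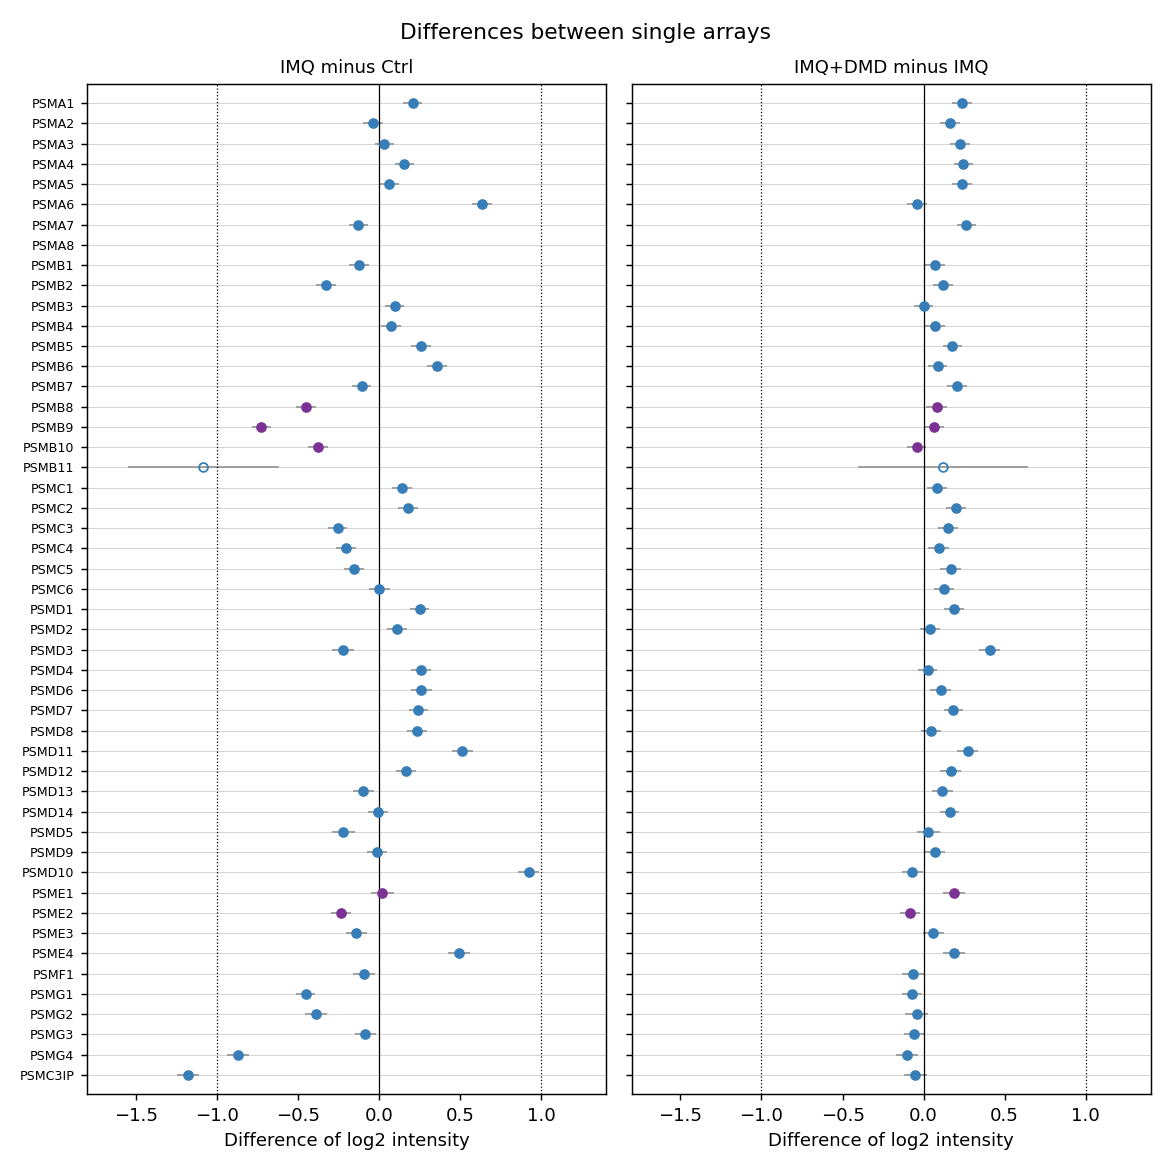
Difference of log2 intensity (horizontal axes) between single arrays for each proteasome gene, with bars of 1 technical SD, inducible genes in purple, open symbols for bounds, and dotted lines at 2-fold. After IMQ the genes spread from -1.18 (PSMC3IP) to 0.92 (PSMD10), and from IMQ to IMQ+DMD from -0.10 (PSMG4) to 0.41 (PSMD3).

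IMQ+DMD against IMQ asked whether the compound moved these genes back. No proteasome gene was at least 2-fold higher, against 1.2% of all genes compared, and none was at least 2-fold lower, against 1.25%. None reached 1.5-fold either, where the shares of all genes were 6.75% and 5.43%. The inducible genes stayed near their IMQ level, with differences of 0.06 for PSMB9, 0.08 for PSMB8, -0.04 for PSMB10, -0.08 for PSME2 and 0.19 for PSME1, and a median of 0.06. PSMB9 on IMQ+DMD was still below Ctrl, with a difference of -0.66 ± 0.06. These comparisons share the IMQ and Ctrl arrays and are not independent.

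The particle was slightly higher on IMQ+DMD than on IMQ as normalized, with 30 of 31 genes higher and a median of 0.16, where 51.5% of all genes compared were higher and 48.5% lower. The size and direction depend on the scaling: 29 of 31 were higher with spike-in controls, with a median of 0.15, 19 without normalization, with a median of 0.02, and 15 with the 75th percentile, with a median of -0.01. In each of these 3 settings the particle median was 0.05 below the median of all genes, while as quantile normalized it was 0.15 above it. The technical SD of a single member was 0.06. PSMD3, a subunit of the 19S lid, had the largest difference, at 11.13 on Ctrl, 10.91 on IMQ and 11.32 on IMQ+DMD, which was 0.41 ± 0.07 above IMQ. It was followed by PSMD11 (0.27), PSMA7 (0.26), PSMA4 (0.25) and PSMA5 (0.24). The 4 core chaperones had differences of -0.10 to -0.04, although PSMG2 was at 0.02 with spike-in controls and 0.15 with the mean of all probes, and their median was below that of the particle by 0.21 to 0.23 in each alternative.

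**Figure D4:**
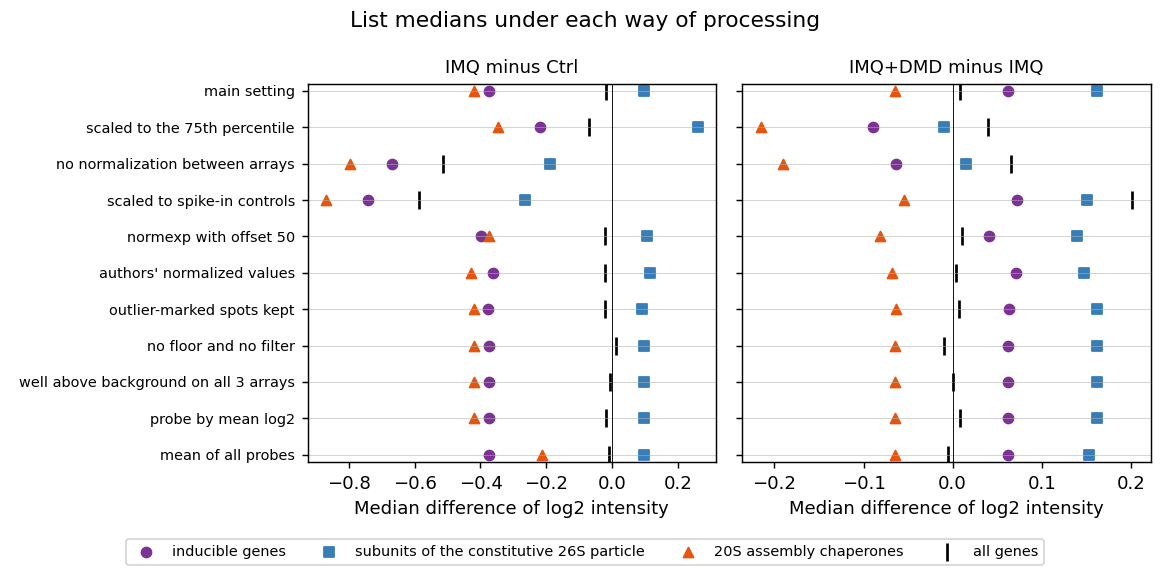
Median difference of log2 intensity (horizontal axes) of 3 gene lists and of all genes under the main and 10 other ways of processing (rows). The core chaperones and the inducible genes lie left of the particle in both panels and every row, while the position against 0 moves with the scaling.

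Genes that work with the proteasome mostly lay above the inducible subunits in their differences. Of 18 genes for assembly, regulation and substrate delivery, 15 were higher after IMQ, where 47.9% of all genes compared were higher. Their median of 0.14 turned to -0.27 with spike-in scaling, where 15 were still above the median of all genes. AKIRIN2, which carries proteasomes into the nucleus, was at 11.71 on Ctrl, 12.58 on IMQ and 12.44 on IMQ+DMD, a difference of 0.87 ± 0.06. POMP, the maturation factor of the core, was at 9.13, 9.50 and 9.45. The lowest was UCHL5, a deubiquitinase of the cap, at 11.98, 11.50 and 11.56 (10 spots), a difference of -0.48 ± 0.06. NFE2L1, the transcription factor that raises proteasome genes when the proteasome is impaired, was at 13.07, 12.77 and 12.80. USP14, a further deubiquitinase of the cap, was the lowest of these genes from IMQ to IMQ+DMD, at -0.18 ± 0.15.

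Among 17 genes of MHC class I processing, 9 were higher and 8 lower after IMQ, with a median of 0.04, where 47.9% of all genes compared were higher. That split depends on the processing, with 12 higher and a median of 0.17 with the 75th percentile, 3 higher and a median of -0.35 with spike-in controls, and 10 higher and a median of 0.23 with the mean of all probes. Relative to all genes the median was higher in each setting, by 0.03 to 0.24. TAP1, which pumps peptides made by the proteasome into the endoplasmic reticulum, was at 14.25 on Ctrl, 14.84 on IMQ and 14.91 on IMQ+DMD, a difference of 0.59 ± 0.06. ERAP2, which trims those peptides, was at 8.81, 8.38 and 8.41, a difference of -0.44 ± 0.09. IRF1, the interferon-response factor that acts on these genes, was at 9.10, 9.50 and 9.60. From IMQ to IMQ+DMD the largest rises as quantile normalized were PDIA3, a chaperone of class I loading (0.28), and NLRC5, the class I transactivator (0.24). With the mean of all probes they were 0.13 and 0.02, with the 75th percentile 0.13 and 0.18, and with spike-in controls 0.29 and 0.34. The 5 ubiquitin genes differed by at most 0.11 in both comparisons as quantile normalized, but their median after IMQ was 0.27 with the 75th percentile and -0.25 with spike-in controls, both 0.34 above the median of all genes.

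TAP1 and PSMB9 are neighbours that are read in opposite directions from a shared stretch of 487 bases (GRCh38, RefSeq), yet their transcripts moved apart, by 0.59 and -0.73. The windows of 250 bases before each start are printed because they cover that stretch, with a matched ISRE or NF-κB motif in capitals. The TAP1 window is chr6:32853705-32853954 on the minus strand and the PSMB9 window is chr6:32853942-32854191 on the plus strand.
TAP1: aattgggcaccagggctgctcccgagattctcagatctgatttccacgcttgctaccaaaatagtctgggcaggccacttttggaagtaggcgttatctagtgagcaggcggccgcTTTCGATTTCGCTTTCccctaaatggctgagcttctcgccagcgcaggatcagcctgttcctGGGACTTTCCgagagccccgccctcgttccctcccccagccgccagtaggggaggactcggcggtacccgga
PSMB9: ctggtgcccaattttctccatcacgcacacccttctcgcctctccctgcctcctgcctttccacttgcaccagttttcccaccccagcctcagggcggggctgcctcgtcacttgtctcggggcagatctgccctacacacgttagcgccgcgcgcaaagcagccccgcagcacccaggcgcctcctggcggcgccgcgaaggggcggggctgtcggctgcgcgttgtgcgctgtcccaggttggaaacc

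The ISRE, the interferon-stimulated response element, was searched on both strands as GAAA, any 2 bases and GAAA again, and the NF-κB motif by its usual consensus. Also searched were GAS, the gamma-activated sequence, as TTC, any 3 bases and GAA, and ARE, the antioxidant response element, as TGAC, any 3 bases and GC. The TAP1 window holds 2 overlapping ISRE matches and 1 NF-κB match, and the PSMB9 window holds neither but has 1 ARE match. All of these matches lie in the shared stretch between the TAP1 and PSMB9 starts. The ISRE and NF-κB matches are thus upstream of PSMB9 too, farther from its start than its window reaches. The windows differ in distance from each start, and do not show that PSMB9 lacks these matches upstream. The window of a second TAP1 start, not printed, holds 1 GAS match. Of 35116 promoter windows of the same length, 3.02% hold the ISRE, 5.21% the NF-κB motif, 6.57% GAS and 10.9% ARE. Among 43 proteasome genes with a window, 5 hold the ISRE, namely PSMB10, PSME2, PSMA4, PSMB4 and PSMG4, and 1 holds the NF-κB motif. GAS was found in 7, including PSMB8, and ARE in 13, including PSMB9, PSME1 and PSME2. A gene with several annotated starts was searched in each of their windows and counted once. The shares above are per window, so they and these counts per gene are not on the same basis. The genes with the ISRE include both directions of change after IMQ, such as PSMA4 (0.16) and PSMG4 (-0.87). A match says only that the letters are there.

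Where a gene had more than 1 probe well above background on every array, the brightest and the next differed in their IMQ difference by a median of 0.11 over 14 members, and 13 of 14 pairs had the same sign. The widest gap was 0.59, for PSMA1. The same gap over all 6339 such genes had a median of 0.23. From IMQ to IMQ+DMD, 8 of the 14 members' pairs had the same sign, and between IMQ+DMD and Ctrl 12 did, with the widest gap of 0.74 for PSMG2. RefSeq names at least 1 pseudogene after 21 of the members, whose transcripts a probe could also read.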

How the data were processed

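RNA of THP-1 macrophages was measured on 1 one-color Agilent array per condition, with all 3 arrays on 1 slide. For each array the authors deposited the scanner output (Feature Extraction 10.5.1.1), whose background-corrected intensity was used here, and a table of raw and quantile-normalized intensity per probe. For the 57901 probes with a single spot, that raw intensity was identical to the scanner output. The 3 columns of detection marks in that table were not used.

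From the scanner intensity, control spots and outlier-marked spots were left out, the remaining values were quantile normalized (limma 3.58.1, R 4.3.3), log2 transformed and averaged per probe. A gene was represented by its probe with the highest mean normalized intensity in the authors' table. A gene was compared where its probe was well above background on the brighter array, and a dim value was raised to the lowest value well above background (4.04 on Ctrl, 4.57 on IMQ and 4.08 on IMQ+DMD, in log2 units). Differences are between single arrays, so no test and no p-value was computed, and precision is limited by how few arrays there are. The technical SD beside a difference came from the 300 probes with 10 spots on an array, by brightness, and covers the noise within an array only. Changes were counted at 2-fold, with 1.5-fold as an alternative. Alternatives covered scaling, background correction, the authors' normalized values, outlier spots, the floor, the choice of probe and membership.

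The members and gene lists were chosen with earlier results of these data known. Genes named in the text are the inducible genes and their counterparts, the 5 largest rises and falls among members in each comparison, every member at 2-fold or not well above background, the 2 largest rises and falls among the related genes, and POMP, NFE2L1, TAP1 and IRF1. A further gene of that rule is counted in its list but is not reported here. Other names were picked after their values were seen. The scripts were tested on simulated data. Later steps used Python 3.11.15, numpy 2.4.6, pandas 2.3.3 and matplotlib 3.10.9.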

Additional observations from a re-analysis of the deposited data

How the results depend on the processing

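No paired analysis was possible because each condition had 1 array, and leaving out an array leaves no comparison. No proteasome gene was at least 2-fold higher after IMQ in any setting at that threshold, and 2 were at 1.5-fold, where 10.7% of all genes compared were higher and 10.7% lower. The count at least 2-fold lower was 2 as reported, where 3.61% of all genes compared were. It was 4 without normalization and with spike-in controls, settings in which the median of all genes fell to -0.51 and -0.59. The count was 4 at 1.5-fold, and 0 without PSMC3IP, PSMA8, PSMB11 and PSME4. It was 1 with normexp, with genes well above background on all 3 arrays and with the probe chosen by mean log2. With the mean of all probes it was 1 too. The 2-fold share of all genes is given for the main setting only, so the counts under other scalings have no background beside them. The inducible median after IMQ was -0.22 with the 75th percentile, -0.67 without normalization and -0.74 with spike-in controls. That of the other genes was 0.17, -0.28 and -0.35, with the median of all genes at -0.07, -0.51 and -0.59. From IMQ to IMQ+DMD, the inducible median was -0.089 with the 75th percentile and -0.064 without normalization, and that of the others -0.027 and -0.0014. The inducible median minus that of the other genes was between -0.42 and -0.38 after IMQ and between -0.07 and -0.04 from IMQ to IMQ+DMD. That contrast thus differed by less than the technical SD of a member between settings. It could not differ among the 75th percentile, no normalization and spike-in controls, which differ by a constant per array. The part of the scaling in the shifts of the medians was not tested. Of 778 values of single genes under alternatives, 724 kept their direction and 0 values past 2-fold changed sign.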

Other observations

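The antisense genes at proteasome loci, left out of the family by their names, were also measured. PSMB8-AS1, which overlaps the inducible gene PSMB8, was at 9.24 on Ctrl, 8.68 on IMQ and 8.63 on IMQ+DMD, a difference of -0.56 for IMQ against Ctrl beside -0.45 for PSMB8. Of the 4 probes of PSMG3-AS1, the brightest differed by -0.01 and the other 3 by -0.74 to -0.38. Both probes of PSMD6-AS2 were higher after IMQ, by 0.45 and 0.36, at levels between 6.10 and 6.77.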
